A study of Homo sapiens with 15 samples.

Results

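The changes common to a pair of DNA minor-groove ligands were followed in A549, an epithelial cell line from a human lung adenocarcinoma, on 6 of the 15 Affymetrix arrays of the series. These were the 3 arrays of cells given the match polyamide and the 3 of cells given the mismatch polyamide, each for 48 hours with 6 hours of dexamethasone. The 9 arrays without polyamide were 3 of non-treated cells, 3 of cells with dexamethasone for 6 hours, and 3 of cells with mifepristone for 48 hours and dexamethasone for 6 hours. Every group grew in F12K medium whose serum had been charcoal-treated. The arrays were taken by their labels. A gene was called shared when the average of both polyamides differed from the average of the 3 other treatments and all 6 polyamide arrays lay on the same side of all 9 others. The labels give neither doses nor compound structures. They also do not say whether replicates were separate cultures, and the p-values then measure only how far these arrays scatter, which can be technical.

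Polyamides of pyrrole and imidazole units are synthetic molecules that lie in the minor groove of DNA and read its base pairs. They can hinder proteins that bind the same stretch of DNA. The series is titled for a polyamide specific to the glucocorticoid response element, the sequence that the hormone-bound glucocorticoid receptor occupies, and the match and mismatch labels set a compound aimed at that element beside one that is not. Dexamethasone is a synthetic glucocorticoid, and mifepristone is an antagonist of its receptor. Because the dexamethasone groups and the non-treated group all stand in the reference, a gene that the hormone itself induces is compared here with a mixture of induced and uninduced levels.

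The signals of the 6 polyamide arrays overlapped those of the 9 others on general measures. The deposited trimmed means ran from 89.8 to 137 against 86.8 to 146, and GAPDH 3'/5' ratios, a sign of RNA quality, from 0.914 to 1.07 against 0.931 to 1.03. The actin 3'/5' ratio had a median of 1.56 (range 1.32 to 1.99) with polyamide and 1.39 (1.32 to 1.57) without, and its part in the results was not tested. The summed signal of 6 epithelial markers was 14370 to 17240 against 15250 to 17800, that of 4 leukocyte markers 33.8 to 61.9 against 30.4 to 66.8, and that of 5 endothelial markers 42.9 to 92.4 against 47.0 to 62.8. The 6 fibroblast markers summed to 192 to 324 against 130 to 215, most of it COL1A1, a collagen chain, at 144 to 251 against 95.5 to 133. Its part in the results was not tested. In such bulk RNA fewer cells of a kind and less RNA per cell cannot be told apart.

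The comparison asked which transcripts both ligands moved. Of 39744 probe sets tested, 14712 differed between the polyamide average and the rest (37% of those tested; limma, adjusted p under 0.05), 7785 higher (19.6%) and 6927 lower (17.4%). In 5311 of them (13.4%) the 6 polyamide arrays were also fully separated from the 9 others, 2467 above (6.21%) and 2844 below (7.16%). With 1 probe set for each gene, 2925 of 16358 genes (17.9%) were shared changes, 1543 higher (9.43%) and 1382 lower (8.45%). Falls were more often large. A change of at least 2-fold was seen in 475 shared genes that fell (2.9% of all tested) and in 176 that rose (1.08%), and in 930 (2.34%) and 286 (0.72%) probe sets. Without regard to separation 7419 genes were called (45.4%), and without regard to the test 1544 genes (9.44%) had all 6 polyamide arrays above the 9 others. Of the 2925 shared genes, 2714 kept their call and full separation with trimmed-mean scaling, 1889 with median centring, 969 with spike-in scaling and 942 when the deposited signals were left unscaled.

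The most raised transcript was RASD1, a Ras-related small GTPase known as a dexamethasone-induced protein. Its quantile-normalized signals were 453, 251 and 389 with the match polyamide and 384, 375 and 385 with the mismatch polyamide, while the 9 other arrays ran from 9.56 to 31.0 with a median of 18.9. Among those 9, dexamethasone alone gave 17.3, 22.6 and 10.3, no higher than non-treated cells at 20.7, 18.9 and 15.1 on average. All 6 polyamide arrays were far above the rest, and both compounds gave about the same level. The average rise was 3.48 log2 units (SE 0.14; limma adjusted p = 5.47e-14), 11.2-fold on the log2(signal + 16) scale used throughout, which understates changes from low signals. BEX2, a small brain-expressed X-linked protein, had signals of 429, 424 and 436 with match and 414, 446 and 404 with mismatch against 56.9 to 85.0 (median 71.5). NEFL, the light chain of neurofilaments, had 274, 237 and 229.7 with match and 248, 225 and 246 with mismatch against 30.5 to 49.9 (median 35.7). BEX2 thus rose by 2.32 (SE 0.07) and NEFL by 2.29 (SE 0.09), and in neither gene did a polyamide array overlap the 9 others. NEFL and the internexin INA (1.61, SE 0.05) build neuronal intermediate filaments, and both were measured here in an epithelial line.

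Other strong rises included DUSP6, CD55, WFDC21P, INPP1 and CSTA. DUSP6, a phosphatase that inactivates the kinase ERK, had signals of 484, 487 and 502 with match and 343, 305 and 309 with mismatch, against 69.3 to 125 in the rest (median 84.1). CD55, which protects cells from complement, had 3170, 3001 and 2672 with match and 1701, 1733 and 1813 with mismatch against 528 to 648 (median 598). Every polyamide array exceeded every other array for both genes, and the match arrays stood above the mismatch arrays. The average rises were 1.96 (SE 0.07) for DUSP6 and 1.90 (SE 0.05) for CD55. WFDC21P, a transcribed pseudogene, went the other way, with 239.9, 214 and 263 under match and 377, 354 and 439 under mismatch against 42.2 to 74.7. INPP1, an inositol phosphatase, had 893, 863 and 927 with match and 1152, 1015 and 1056 with mismatch against 177 to 418. Its difference between the compounds did not pass the test (-0.26, interval -0.46 to -0.061; adjusted p = 0.0684). CSTA, an inhibitor of cysteine proteases, had 159, 173 and 194 with match and 117, 99.8 and 86.0 with mismatch against 13.9 to 35.6. These 3 genes rose by 2.09 (SE 0.09), 1.87 (SE 0.06) and 1.87 (SE 0.11) on average.

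The most lowered transcripts fell close to the bottom of the signal range. IMMP2L, a subunit of a peptidase of the mitochondrial inner membrane, gave 1.02, 1.35 and 1.30 with match and 3.92, 5.41 and 2.21 with mismatch, whereas the 9 other arrays ran from 149.6 to 199 (median 177). SMYD3, a lysine methyltransferase, gave 5.57, 1.49 and 1.83 with match and 21.8, 9.63 and 15.8 with mismatch against 201 to 283 (median 229). The groups did not come near each other for either gene. The falls were -3.37 (SE 0.08; adjusted p = 1.2e-16) and -3.36 (SE 0.10; adjusted p = 7.58e-16). Since the median signal of an array as deposited lay between 14.8 and 24.5, the polyamide signals of IMMP2L were low for any probe set, and the fitted falls depend on the 16 added before logs.

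EXOC4, a subunit of the exocyst complex that tethers secretory vesicles, gave 12.8, 26.0 and 7.54 with match and 24.3, 7.36 and 14.8 with mismatch against 220.1 to 313. GPC6, a cell-surface heparan sulfate proteoglycan, gave 7.12, 1.45 and 6.17 with match and 1.85, 1.36 and 2.00 with mismatch against a median of 144 in the rest (highest 170.2). Both fell to similar low levels under either compound, by -3.16 (SE 0.13) and -3.01 (SE 0.11). PRKCA, the kinase protein kinase C alpha, gave 99.4, 100.9 and 114 with match and 82.4, 91.7 and 104 with mismatch against 705 to 877. DOCK4, an activator of the GTPase Rac, gave 19.2, 17.6 and 19.7 with match and 24.4, 18.4 and 20.2 with mismatch against 172 to 336. Each of them fell by -2.82 (SE 0.06 and 0.07). The other genes among the 12 most lowered were the receptor tyrosine phosphatases PTPRM (-3.11) and PTPRK (-3.06), the calcium channel subunit CACNA2D1 (-3.09), the focal adhesion protein LPP (-3.02), adenosine kinase ADK (-2.87) and TBC1D5 (-2.79), a regulator of Rab GTPases. The 12 spans ran from 480 to 1191 kb.

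Probe sets of the same gene did not always move equally. The further tested probe sets of NR4A2 (2.50 and 2.57), DUSP6 (1.88 to 2.55), CD55 (1.70 to 1.82) and TBC1D5 (-3.37 to -1.40) moved the same way as the one printed. For EXOC4 they lay at -1.27 and 0.24, for PTPRK at -0.44, and the 6 further ones of LPP lay between -3.31 and 0.20, 4 of them past the test as lower. Weaker falls than in the printed probe set were also seen for CACNA2D1 (-0.94), GPC6 (-1.13) and PRKCA (-1.21 to -0.256). The 7 further ones of DST lay between -1.33 and 0.113, 3 of them past the test as lower. Those of ATF3 lay at 0.308 and 0.642, 1 of them past the test as higher. Among all genes named here, probe sets that passed the test in opposite directions occurred in XRCC5, POLR1D and SRSF3.

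**Figure D1:**
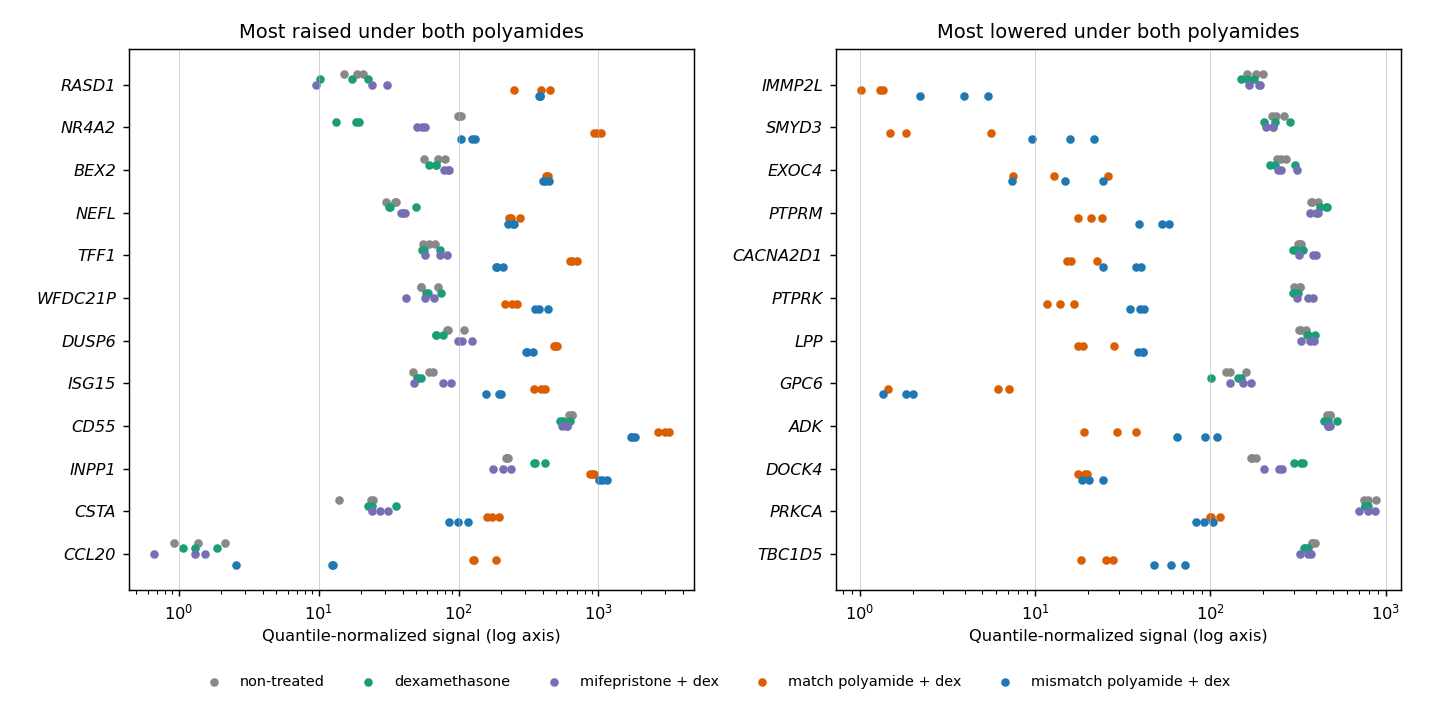
Quantile-normalized signal of each array (log axis) for the 12 most raised genes (left) and the 12 most lowered genes (right) among shared changes. Each point is 1 of 15 arrays, coloured by treatment, and the 6 polyamide arrays lie apart from the 9 others in every row. NR4A2, TFF1 and CCL20 show a gap between match and mismatch, whereas RASD1, BEX2 and EXOC4 do not.

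Promoters of 6 of these genes are shown so that the raised and lowered groups can be compared at the DNA that transcription starts from. They are the RefSeq windows (GRCh38.p14) from 250 bases before to 50 bases after the gene start, for the 3 most raised and the 3 most lowered genes with a window in the RefSeq table, except that NEFL, which ranks before DUSP6, was left out. RASD1 (chr17:17496346-17496645, minus strand), BEX2 (chrX:103310941-103311240, minus strand) and DUSP6 (chr12:89352452-89352751, minus strand) rose. IMMP2L (chr7:111562443-111562742, minus strand), SMYD3 (chr1:246507230-246507529, minus strand) and EXOC4 (chr7:133252828-133253127, plus strand) fell. Each is written 5′ to 3′ along the gene, with capitals for 3 motifs on either strand. They are AGAACA, a part of the glucocorticoid response element and not the whole of it, TATAAA, and TGACGTCA, the cAMP response element.
RASD1: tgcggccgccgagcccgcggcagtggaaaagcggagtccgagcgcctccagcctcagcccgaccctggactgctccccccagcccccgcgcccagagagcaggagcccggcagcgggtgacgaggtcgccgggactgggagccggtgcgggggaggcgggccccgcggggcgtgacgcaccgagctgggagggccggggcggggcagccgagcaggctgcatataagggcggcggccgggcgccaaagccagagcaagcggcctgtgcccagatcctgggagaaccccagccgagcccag
BEX2: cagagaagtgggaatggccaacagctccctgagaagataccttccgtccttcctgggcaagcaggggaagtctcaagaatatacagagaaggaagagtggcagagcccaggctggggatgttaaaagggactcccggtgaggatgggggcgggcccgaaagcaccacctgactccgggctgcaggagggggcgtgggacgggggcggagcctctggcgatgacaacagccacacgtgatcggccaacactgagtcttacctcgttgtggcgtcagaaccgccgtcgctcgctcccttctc
DUSP6: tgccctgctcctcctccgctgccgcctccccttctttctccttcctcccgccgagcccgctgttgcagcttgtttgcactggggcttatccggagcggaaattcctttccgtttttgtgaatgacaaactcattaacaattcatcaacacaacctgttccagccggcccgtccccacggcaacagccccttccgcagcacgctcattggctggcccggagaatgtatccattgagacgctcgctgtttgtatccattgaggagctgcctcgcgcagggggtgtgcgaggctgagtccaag
IMMP2L: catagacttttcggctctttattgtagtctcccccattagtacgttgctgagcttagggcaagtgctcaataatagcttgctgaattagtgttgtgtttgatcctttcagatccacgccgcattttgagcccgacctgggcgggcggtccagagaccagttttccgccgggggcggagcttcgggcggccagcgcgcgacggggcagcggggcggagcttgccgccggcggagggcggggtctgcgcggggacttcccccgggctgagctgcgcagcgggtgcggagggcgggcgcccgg
SMYD3: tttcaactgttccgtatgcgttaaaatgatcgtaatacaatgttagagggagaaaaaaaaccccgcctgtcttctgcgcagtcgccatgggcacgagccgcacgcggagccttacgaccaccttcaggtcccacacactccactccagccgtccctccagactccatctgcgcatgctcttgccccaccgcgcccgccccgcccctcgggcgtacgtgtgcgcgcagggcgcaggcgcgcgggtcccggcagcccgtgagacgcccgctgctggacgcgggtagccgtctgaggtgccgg
EXOC4: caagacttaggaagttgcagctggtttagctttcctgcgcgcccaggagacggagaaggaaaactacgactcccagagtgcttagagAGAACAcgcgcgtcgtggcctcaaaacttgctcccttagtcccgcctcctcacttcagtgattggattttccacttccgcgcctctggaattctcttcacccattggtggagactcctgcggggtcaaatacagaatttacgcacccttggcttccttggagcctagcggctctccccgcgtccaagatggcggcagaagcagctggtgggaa
The only motif in these 6 windows was AGAACA in EXOC4, a lowered gene, and GC content was 58.3% to 76.3% in the raised and 55.7% to 65.0% in the lowered windows. Over all genes with a window, AGAACA stood in 8.63% of 1240 shared higher, 7.4% of 1148 shared lower and 10.1% of 12931 tested promoters, and in 14.9% of all 27305 windows. TATAAA stood in 5.4% of the shared higher, 5.92% of the shared lower and 7.36% of the tested promoters (11.95% of all windows). TGACGTCA stood in 3.87%, 1.83% and 2.85% (1.98% of all windows). In the 129 promoters of genes that rose at least 2-fold the shares were 12.4% for AGAACA (16 promoters), 13.2% for TATAAA (17) and 5.43% for TGACGTCA (7). In the 393 promoters of genes that fell at least 2-fold they were 8.40%, 6.36% and 2.80%. The median window of 300 bases held 196 G or C for shared higher, 198 for shared lower and 192 for all tested genes, with 175 for all windows. These shares describe the letters of the windows and were not tested, and a motif elsewhere in a gene would not be counted.

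The length of genes, which the choice of members did not use, differed between shared rises and falls. The median RefSeq span, from the first to the last base of the gene, was 136 kb for shared lower genes, 16.6 kb for shared higher genes and 25.2 kb for the rest. Among 616 genes over 300 kb, 41.9% were shared falls and 0.325% shared rises, and the median change was -0.44. Among 4091 genes under 10 kb, 1.66% were shared falls and 12.1% shared rises, with a median of 0.13. The classes between them ran in order, with 2.45% shared falls at 10 to 30 kb, 7.08% at 30 to 100 kb and 26.9% at 100 to 300 kb. Of the 475 genes that fell at least 2-fold, 212 spanned over 300 kb and 194 from 100 to 300 kb. Across 16336 genes, which share the same arrays and are no replicates, Spearman's rho between change and span was -0.35, while that between change and mean signal was -0.0041.

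Each polyamide array showed the length pattern. The median deviation of genes over 300 kb from the mean of the 9 arrays was -0.57, -0.53 and -0.60 with match and -0.45, -0.45 and -0.46 with mismatch, against -0.037 to 0.040 in the 9 arrays. All 6 polyamide values lay below all others. The median log2 signal did not follow span in order, at 5.79, 6.72, 7.11, 6.74 and 5.38 from the shortest to the longest class, and the size of the shift moved with the filter on low signals and the added constant. It was -0.17 without a filter, -1.23 with the stricter filter, -0.62 with log2(signal + 4) and -0.20 with log2(signal + 64). The 2 shared rises over 300 kb were the antisense transcript ENTPD1-AS1 (337 kb, 0.78) and AKAP19 (324 kb, 0.73).

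**Figure D2:**
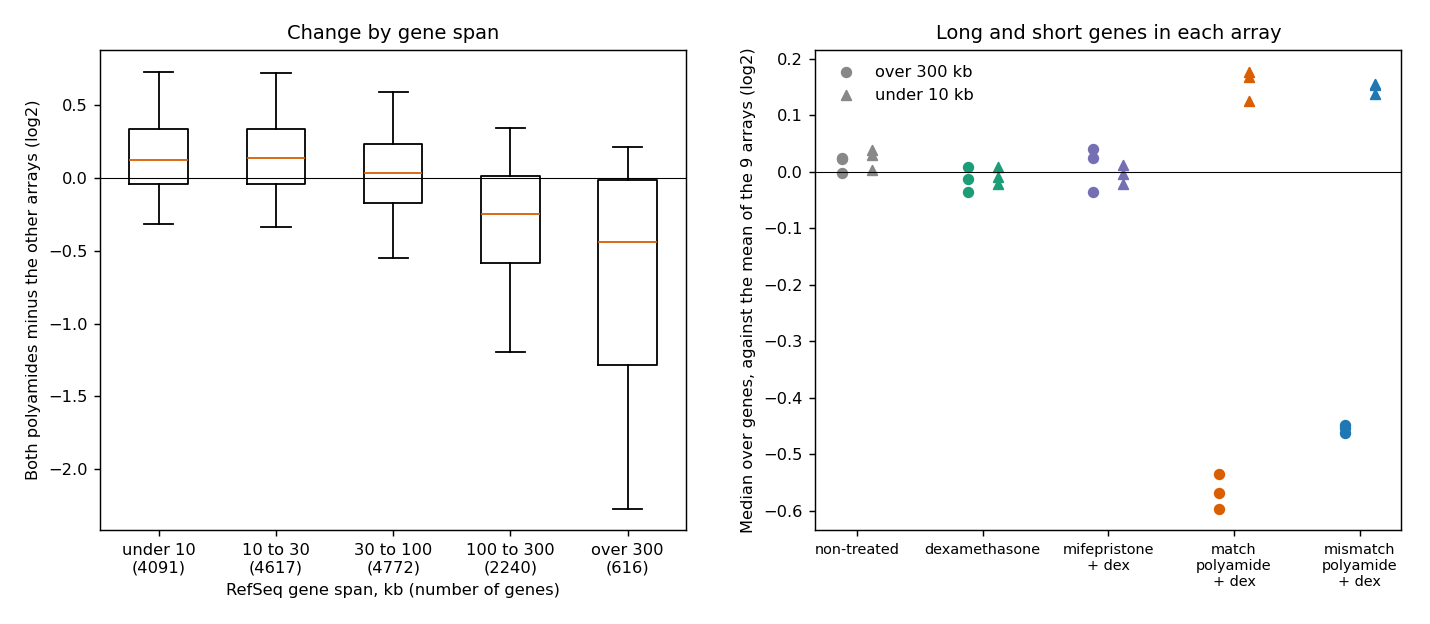
Left, change of both polyamides against the other arrays (log2) by RefSeq gene span in kb, with the number of genes under each box; boxes are quartiles with the median, and whiskers the 5th to 95th percentile. Right, median deviation of genes over 300 kb (circles) and under 10 kb (triangles) from the mean of the 9 arrays, for each array. The medians fall from 0.13 under 10 kb to -0.44 over 300 kb, and the 6 polyamide arrays alone carry the shift of long genes.

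The match and mismatch polyamides were compared directly, as 1 pair at the same times and at doses the labels do not give. The difference passed the test in 3741 of 16358 genes (22.9%), 1540 with match above (9.41%) and 2201 with match below (13.5%). Among the 1543 shared rises, match was above mismatch in 334, below in 54 and not past the test in 1155. Among the 1382 shared falls, match was below mismatch in 591, above in 61 and not past the test in 730. The medians were 0.63 with match and 0.50 with mismatch for the rises, and -0.90 and -0.66 for the falls. Of the 475 falls of at least 2-fold, 275 were deeper with match, with medians of -1.62 and -1.16.

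These counts moved with the scaling of the arrays. Over all probe sets that differed between the compounds, match was above in 44.3% (2969, or 7.47% of those tested, against 3728, or 9.38%, below), a share of 18% on signals as deposited, 20% with median centring, 46% with trimmed-mean scaling and 75% with spike-in scaling, which moved the median difference of all probe sets to 0.16. For the shared falls, match stayed more often below, with 448, 684, 576 and 166 genes below against 9, 21, 58 and 32 above in the same order. For the shared rises the numbers above and below were 40 and 24, 102 and 104, 318 and 62, and 190 and 2. With median centring the rises therefore showed no excess above, their median difference of -0.040 lying over that of all genes at -0.10. Of the 76 named genes whose difference between compounds passed the test, 27 passed it under every alternative that was run.

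The genes with the largest fitted rises of match over mismatch were NR4A2, CCL20 and TFF1. NR4A2, an orphan nuclear receptor induced by many stimuli, had signals of 1040, 981 and 934 with match and 126, 104 and 130.2 with mismatch, against 13.3 to 103.5 in the rest (median 54.7). The lowest mismatch array, at 103.9, thus barely exceeded the highest array without polyamide. The difference was 2.89 (95% interval 2.65 to 3.12; adjusted p = 1.01e-11). CCL20, a chemokine of epithelial cells, had 185, 128 and 129 with match and 2.58, 12.4 and 12.8 with mismatch against 0.672 to 2.13. The mismatch signals were all below the median signal of any array, and the lowest, 2.58, set against 2.13 in the rest, decides whether the gene counts as shared. The difference passed the test, but its size follows the constant added before logs (2.70 with 16, 3.61 with 4 and 1.52 with 64). TFF1, a secreted trefoil peptide, had 621, 643 and 705 with match and 187, 186 and 208 with mismatch against 54.6 to 82.1, a difference of 1.68 (interval 1.42 to 1.94). The stress transcription factor ATF3 (156, 155 and 157 against 49.6, 53.03 and 50.4; rest 15.3 to 37.2) and PIERCE2 differed by 1.36 and 1.33.

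The genes lowered most beyond mismatch by match were CNTN1, HTRA1, FAF1, CASK and ATG10. CNTN1, a neural adhesion protein, had signals of 83.5, 57.8 and 56.1 with match and 297, 332 and 304 with mismatch, against 801 to 1246 in the rest (median 1042). Its arrays formed 3 levels with no overlap, and the difference was -2.01 (interval -2.24 to -1.79; adjusted p = 2.72e-10). HTRA1, a secreted protease, had 4.94, 27.4 and 29.6 with match and 101.2, 115 and 125 with mismatch against 168 to 201, a difference of -1.90 (interval -2.32 to -1.49). FAF1, a FAS-associated factor, had 27.4, 24.9 and 29.2 with match and 94.2, 142 and 111 with mismatch against 329 to 473. CASK, a scaffold kinase of cell junctions, had a mean of 76.6 (SD 21.3) with match and of 255.5 (SD 6.3) with mismatch, 3 arrays each, against 410.1 to 590. ATG10, an enzyme of autophagy, had 23.9, 25.7 and 32.0 with match and 111, 106 and 115 with mismatch against 188 to 236. The last 3 genes differed by -1.60, -1.58 and -1.56, and all 5 differences passed under every alternative.

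Other large shared changes were close to equal. The 4 smallest differences among changes of at least 2-fold were in the zinc finger gene ZNF407 (0.00043, interval -0.34 to 0.34), the cytoskeletal linker DST (0.0039, interval -0.26 to 0.26), EXOC4 (-0.0070, interval -0.42 to 0.41) and MDM2 (0.010, interval -0.21 to 0.23), genes that were picked for this. The intervals show that differences of up to about 0.42 in EXOC4 are not excluded. MDM2, the ubiquitin ligase that keeps p53 low, had signals of 732, 1038 and 790.1 with match and 828.6, 799 and 888 with mismatch against 297 to 380.1. DST had 125, 112 and 131 with match and 116, 125 and 125 with mismatch against 226 to 364. Among the changes of at least 2-fold, the interval of the difference lay within 2-fold either way in 80.1% of the 176 rises and 71.6% of the 475 falls, against 91% of all genes tested.

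**Figure D3:**
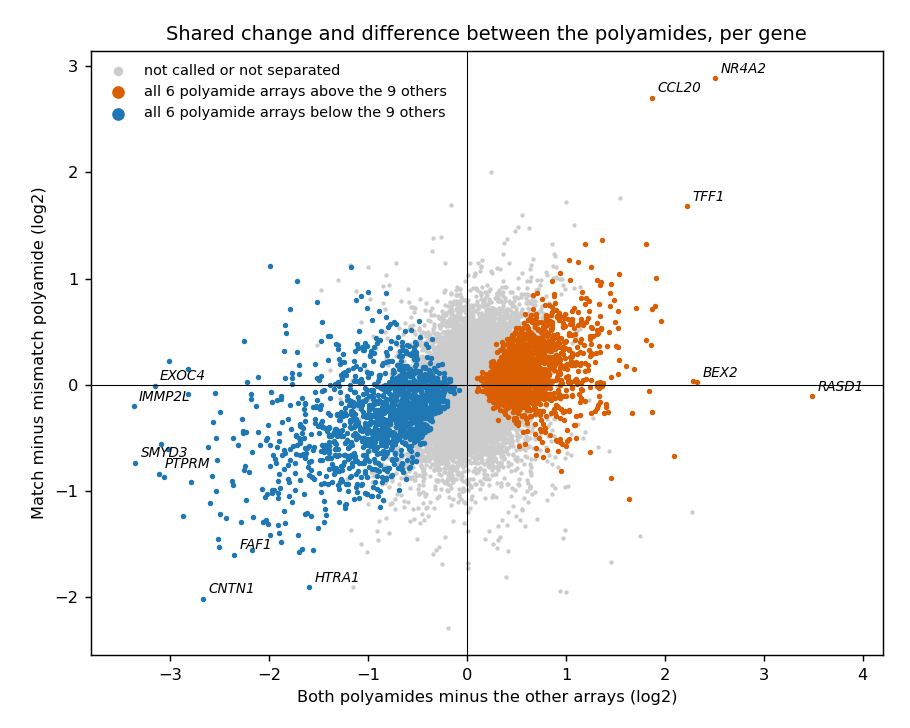
Average change of both polyamides against the other arrays (horizontal, log2) and match minus mismatch (vertical, log2), 1 point per gene for 16358 genes. The 1543 shared rises are orange, the 1382 shared falls blue. NR4A2, CCL20 and TFF1 stand high on the right, CNTN1 low on the left, and RASD1, BEX2 and EXOC4 near the line of no difference.

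The gene lists described next were written with earlier results of these data known. Their counts describe the listed members and are no test of which functions changed. Higher and lower refer here to the test of the average of both polyamides, which 1 compound can carry. For all 16358 genes, 26.2% were higher, 19.1% lower, and the median change was 0.053. The p53 targets, which the tumour suppressor switches on after stress, leaned upwards. Of 27 tested, 22 rose and 5 did not pass, 19 of them with fully separated arrays (9.43% of all genes; 10 to 19 under the other scalings), and the median was 0.84, with 0.88 under match and 0.69 under mismatch. The growth arrest gene GADD45A (1.36, SE 0.05), the phosphatase PPM1D (1.19, SE 0.04), SERTAD1 (1.24, SE 0.06) and TP53I3 (0.84, SE 0.04) had the smallest adjusted p, and MDM2 rose by 1.31 (SE 0.07). GADD45A had 592, 598 and 620.3 with match and 612, 646 and 571 with mismatch against 139 to 492. Its means were 149 (SD 13) in non-treated, 476 (SD 20) in dexamethasone and 159 (SD 9.4) in mifepristone arrays. Most of its average rise is thus against arrays with low levels, and the dexamethasone arrays lay much nearer the polyamide arrays. Against the dexamethasone arrays alone, 23 of the 27 list members were higher, with a median of 0.885. CDKN1A, the inhibitor p21, had means of 859 (SD 87) with match and 1033 (SD 57) with mismatch, 3 arrays each, against arrays of 424 to 699.

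Genes of the BCL2 family, which set the threshold for apoptosis, included 10 of 17 that rose and 1 that fell, BCL2L2 (-0.42). The pro-apoptotic BIK rose by 1.19 (SE 0.14) and the mitophagy receptor BNIP3 by 0.32 (SE 0.04), and only these had separated arrays. Genes of DNA damage signalling and repair split, with 9 of 38 higher and 12 lower. XPC, a sensor of helix distortion that is also a p53 target, rose by 1.08 (SE 0.06) and the checkpoint kinase CHEK2 by 0.80 (SE 0.07). XRCC4 (-1.12, SE 0.09) and XRCC5 (-0.40, SE 0.03), which join broken ends, fell, as did the kinase ATM (-1.02, SE 0.12) and the alkyltransferase MGMT (-1.20, SE 0.13). One further probe set of XRCC5 was called higher and another lower.

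The ATF4 response, genes of amino acid supply and stress that the factor ATF4 drives, rose in 24 of 30 tested genes, fell in 2 and did not pass in 4, with 16 fully separated above. Both on signals as deposited and with spike-in scaling 21 rose and 3 were separated. The median was 0.80 with match and 0.32 with mismatch, and match was above mismatch in 22 of 30 (11 to 21 under the other scalings). ASNS, asparagine synthetase, had signals of 2816, 2934 and 2689 with match and 1496, 1614 and 1507 with mismatch against 708 to 790.3 in the rest (median 746). Its 3 levels did not overlap. The average rise was 1.45 (SE 0.04; adjusted p = 1.44e-16), and the difference between the compounds 0.86 (interval 0.74 to 0.98). CHAC1, which degrades glutathione, rose by 1.71 (SE 0.09), the folate enzyme MTHFD2 by 0.87 (SE 0.03), the cysteinyl-tRNA synthetase CARS1 by 0.76 (SE 0.04) and ATF4 itself by 0.62 (SE 0.04). The amino acid transporters SLC7A11 (-1.12, SE 0.05) and SLC7A5 (-0.65, SE 0.04) fell.

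Chaperones of the endoplasmic reticulum, which fold secreted proteins, leaned downwards. Of 22 tested, 14 fell, 1 rose and 7 did not pass, 10 of them with separated arrays (8.45% of all genes), and the median was -0.30. Under the other scalings 12 to 13 fell and 3 to 8 were separated. PDIA4 (-0.88, SE 0.07) and PDIA6 (-0.53, SE 0.04), which form disulfide bonds, the degradation adaptor SEL1L (-0.67, SE 0.06) and the co-chaperone DNAJC3 (-0.73, SE 0.06) had the smallest adjusted p. PDIA6 had 1711, 1776 and 1940 with match and 2114, 2171 and 2540 with mismatch against 2738 to 3096. HSPA5, the chaperone BiP, fell by -0.30 (SE 0.03). The member that rose was the transcription factor XBP1 (0.42, SE 0.06).

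Interferon-stimulated genes rose in 15 of 20 tested, with 10 fully separated (8 to 9 under the other scalings), 1 lower (TRIM22, -0.50) and a median of 0.85. ISG15, a ubiquitin-like modifier, had signals of 346, 416 and 389 with match and 200.5, 193 and 158 with mismatch against 47.1 to 88.2 in the rest (median 54.0). Its rise was 1.91 (SE 0.10), and match lay 1.00 above mismatch (interval 0.68 to 1.33). OAS1, which senses double-stranded RNA, had 1257, 1181 and 1194 with match and 749, 673 and 808 with mismatch against 304 to 469. IFIT3 had 189, 210.1 and 156 with match and 187, 198 and 162 with mismatch against 52.5 to 75.01, levels that overlapped between the compounds. The factor IRF7 rose by 1.44 (SE 0.09). Over the list, match was above mismatch in 5 of 20.

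Immediate early genes, transcribed within minutes of a stimulus, rose in 21 of 27 and did not pass in 6, but only 7 had separated arrays (4 to 6 under the other scalings). Match was above mismatch in 20 (9 to 19 under the other scalings), with medians of 0.80 and 0.26. KLF4, a growth-restraining factor, had 1230, 1151 and 1002 with match and 811, 747 and 750.1 with mismatch against 213 to 613, and IER3 had 1688, 1540 and 1610 with match and 1191, 1104 and 1142 with mismatch against 251 to 928. Both were separated in every array. With the dexamethasone arrays alone as reference, 14 members were higher and 2 lower. Inflammatory and NF-kappaB genes divided against all 9 arrays, with 10 of 23 higher, 6 lower and a median of 0.195. In that comparison the list median was 0.38 with match and -0.080 with mismatch. Against the dexamethasone arrays alone 11 members were higher and 2 lower, with a median of 0.377. The subunits RELB (1.35, SE 0.11) and NFKB2 (1.12, SE 0.09) and the inhibitor TNFAIP3 (0.72, SE 0.09) rose, and the chemokine CCL2 fell by -1.54 (SE 0.12). NFKB2 had 346, 234 and 301 with match and 125, 116 and 123 with mismatch against 59.1 to 108.

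Components of transcription were more often higher than lower. Of 46 genes of the RNA polymerase II machinery, 25 rose (17 to 25 under the other scalings) and 7 fell (3 to 6), and the median was 0.22. Of them 11 were separated above, a count of 6 with median centring and of 1 both on signals as deposited and with spike-in scaling. CDK7, the kinase of the general factor TFIIH, had 979, 1051 and 1011 with match and 691, 611 and 557 with mismatch against 371 to 472, a rise of 0.89 (SE 0.06). MNAT1, its partner in the same complex, had 56.5, 76.6 and 55.7 with match and 103, 105 and 109.6 with mismatch against 146 to 174, a fall of -0.85 (SE 0.07). The gene of CDK7 spans 42.6 kb and that of MNAT1 235 kb. GTF2A2 (0.36, SE 0.03), POLR2H (0.47, SE 0.05) and the largest polymerase subunit POLR2A (0.76, SE 0.11) rose.

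RNA polymerase I and ribosome assembly had 20 of 27 members higher and 3 lower (13 to 19 higher under the other scalings), with a median of 0.30. NOB1, a nuclease of the small subunit, had 1202, 1343 and 1287 with match and 802, 847 and 773 with mismatch against 430.4 to 611. NOLC1 rose by 0.95 (SE 0.05), POLR1D by 0.87 (SE 0.03) and POLR1C by 0.79 (SE 0.06), although the 2 further probe sets of POLR1D fell (-0.80 and -0.77). Of 8 tested host genes of small nucleolar RNAs, 4 rose and 1 fell, and EPB41L4A-AS1 (1.12, SE 0.06) and ZFAS1 (0.68, SE 0.05) were the separated ones. Ribosomal protein genes moved little, 10 of 40 rising (3 to 9 under the other scalings) and 30 not passing, with a median of 0.039. RPL12 rose by 0.34 (SE 0.02), RPS15 by 0.23 (SE 0.03) and RPL9 by 0.10 (SE 0.02), the last a call that was lost on signals as deposited, with median centring and with spike-in scaling.

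Proteins that themselves bind the minor groove or bend DNA showed no common direction, with 7 of 16 higher (4 to 7 under the other scalings) and 4 lower (3 to 5). The architectural factor HMGA2 (-0.86, SE 0.06) and TCF7L2 (-0.79, SE 0.05) fell, HMGB2 (0.33, SE 0.03) and the mitochondrial factor TFAM (0.63, SE 0.09) rose, and HMGB1 did not pass (-0.056, SE 0.031). The TATA-binding protein TBP rose by 0.34 (SE 0.09), without separated arrays. Lysine methyltransferases divided likewise, 10 of 28 higher (4 to 10 under the other scalings) and 7 lower (4 to 8). Beside SMYD3, KMT2C (-1.47, SE 0.11) and EHMT1 (-1.09, SE 0.06) fell, and NSD1 rose by 0.98 (SE 0.07). Topoisomerase genes had 4 of 8 higher (2 to 4 under the other scalings) and 1 lower, TOP2B (-0.27, SE 0.06).

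Lists of surface and matrix genes leaned downwards. Their median spans were 86 kb (matrix and integrin), 278 kb (adhesion and guidance), 266 kb (DOCK) and 179 kb (receptor phosphatases). Of all genes, shared falls made up 7.08% at 30 to 100 kb, 26.9% at 100 to 300 kb and 41.9% over 300 kb. Whether these lists differ from other genes of like span was not tested. Of 29 tested matrix and integrin genes, 22 fell, 3 rose and 4 did not pass, 14 of them with separated arrays below (9 to 14 under the other scalings), and the median was -0.69. ITGB1, the common beta chain of integrins, had 3656, 3698 and 3647 with match and 4403, 4511 and 4292 with mismatch against 6488 to 6796 in the rest (median 6619). Its groups of arrays were narrow and far apart for a fall of -0.72 (SE 0.02). Fibronectin, FN1, had 387, 527 and 354 with match and 294, 315 and 267 with mismatch against 1089 to 1581, a fall of -1.83 (SE 0.07). The basement membrane collagen COL4A2 fell by -1.97 (SE 0.08) and the integrin ITGAV by -0.90 (SE 0.04). The laminin chain LAMB3 (0.98, SE 0.10) and the collagen chain COL1A1 (0.61, SE 0.07) were separated above. Match was below mismatch in 14 of the 29 and above in 2 (2 and 2 with spike-in scaling).

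Genes of adhesion and axon guidance fell in 16 of 28, rose in 1 and did not pass in 11, with 12 separated below (8 to 12 under the other scalings). After CNTN1, the guidance receptor ROBO1 fell by -2.50 (SE 0.12), the adhesion molecule CADM1 by -2.07 (SE 0.08), the co-receptor NRP1 by -1.72 (SE 0.06) and the netrin NTN4 by -1.64 (SE 0.07). NRP1 had 231, 231 and 225 with match and 185, 186 and 174 with mismatch against 489 to 895. The DOCK activators of Rac and Cdc42 fell in 6 of 8, all 6 separated, with a median of -1.29. DOCK6 rose (0.27, SE 0.09) but was not called under the other scalings. DOCK8 did not pass at low signals (3.07 to 10.9 with polyamide, 7.09 to 18.8 without). These counts rest on 1 probe set per gene. Further ones moved less, at -0.546 to -0.0629 for DOCK9 (1 of 4 called lower) and -0.531 to -0.27 for DOCK1 (1 of 2). The further one of DOCK10 (-0.0738) was not called. Receptor tyrosine phosphatases fell in 7 of 15 and rose in 1. PTPRM had 17.6, 20.96 and 24.1 with match and 53.2, 39.3 and 58.0 with mismatch against 369 to 461, PTPRK had 13.9, 16.7 and 11.8 with match and 39.9, 42.1 and 34.9 with mismatch against 298 to 384, and the member that rose, PTPRH (1.36, SE 0.15), spans 28.3 kb.

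The TGF-beta pathway, in which ligands released from latent complexes act through paired receptors and SMAD proteins, fell in 17 of 23, rose in 1 and did not pass in 5, with a median of -0.48. Among binding proteins, LTBP1 fell by -1.84 (SE 0.08). Among receptors, TGFBR2 fell by -0.94 (SE 0.05) and the co-receptor TGFBR3 by -1.27 (SE 0.07), while TGFBR1 rose by 0.79 (SE 0.05). TGFBR1 had means of 759 (SD 52), 1530 (SD 15) and 1336 (SD 157) in non-treated, dexamethasone and mifepristone arrays, and of 2095 (SD 29) and 1926 (SD 65) with match and mismatch. Among targets, the matrix protein TGFBI had 2338, 2224 and 2401 with match and 2243, 2149 and 2030 with mismatch against 4894 to 5576, a fall of -1.25 (SE 0.03). Match lay close to mismatch there, at 0.12 (interval 0.0038 to 0.23; adjusted p = 0.162).

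Epithelial markers divided. EPCAM had 569.6, 724 and 525 with match and 481, 456 and 522 with mismatch against 152 to 261, a rise of 1.30 (SE 0.07), and KRT19 rose by 0.61 (SE 0.04). E-cadherin, CDH1, had 122, 126 and 126 with match and 145, 185 and 154 with mismatch against 279 to 403, a fall of -1.14 (SE 0.06). The abundant keratins KRT8 (-0.14, SE 0.04) and KRT18 (-0.068, SE 0.023) fell slightly without separation. MUC1 was also called higher, but its polyamide arrays (34.2 to 189) reached both below and above the others (42.9 to 110). Of the 3 markers that fell, 1 to 2 did so under the other scalings.

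Cell cycle genes changed in both directions and depended on scaling. Of 33 mitotic genes, 16 rose (8 to 17 under the other scalings) and 8 fell, with CCNB2 (0.60, SE 0.05), KIF23 (0.54, SE 0.04), CDC20 (0.65, SE 0.06) and KIF2C (0.58, SE 0.06) separated above. Of 38 replication and G1/S genes, 17 rose (8 to 16 under the other scalings) and 9 fell. The polymerase subunit POLA1 (-1.32, SE 0.07), the kinase CDK6 (-1.06, SE 0.05) and GINS1 (-0.52, SE 0.06) fell, and cyclin D1, CCND1, rose by 0.56 (SE 0.06). CDK6 had 144, 158 and 166 with match and 158, 155 and 147 with mismatch against 252 to 425. Of 17 histone genes, 5 fell (3 to 4 under the other scalings) and 2 rose, with H2AC6 (-0.61, SE 0.05), H2BC5 (-0.47, SE 0.05) and H2BC21 (-0.38, SE 0.09) separated below. H2BC21 lost its call against the dexamethasone arrays alone (limma adjusted p = 0.0892), and none of the histone genes was separated on signals as deposited or with spike-in scaling.

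Metabolic and vesicle lists were mixed as well. NRF2 targets, the antioxidant program that A549 cells express at high levels, fell in 12 of 23 and rose in 6, but 9 were higher and 8 lower against the dexamethasone arrays alone. ME1 had 583, 529.7 and 549.7 with match and 1025, 1139 and 1060 with mismatch against 1506 to 1868. ABCC3 fell by -1.14 (SE 0.06) and the printed probe set of AKR1C1 by -0.72 (SE 0.06), whereas GPX2 rose by 0.57 (SE 0.03). The 3 further probe sets of AKR1C1 lay between -0.125 and -0.0291, and none of them passed the test. Hypoxia and glycolysis genes rose in 11 of 28 and fell in 9, among them HIF1A (-0.68, SE 0.04), the growth factor VEGFA (0.97, SE 0.06), EGLN1 (0.57, SE 0.06) and ALDOC (1.35, SE 0.14). Lysosome and autophagy genes fell in 12 of 24 and rose in 10 (8 to 12 and 6 to 8 under the other scalings), with the protease CTSB at -0.96 (SE 0.03), ATG5 at -0.85 (SE 0.04), UVRAG at -1.06 (SE 0.08) and GLA at 0.50 (SE 0.04).

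Cholesterol synthesis genes rose in 7 of 17 and fell in 1, with SREBF1 at 0.97 (SE 0.08) and INSIG1 at 0.44 (SE 0.04). Subunits of oxidative phosphorylation gave 7 of 40 higher and 9 lower, counts that were 9 and 6 with trimmed-mean scaling and 1 and 1 with spike-in scaling. NDUFA9 (-0.39, SE 0.06) fell and NDUFB10 (0.28, SE 0.04) rose under each scaling, while COX6C (-0.29, SE 0.03) lost its call with spike-in scaling and ATP5PB (-0.20, SE 0.03) there and on signals as deposited. Splicing regulators rose in 7 of 23 (1 to 6 under the other scalings) and fell in 5, with SRPK2 at -1.02 (SE 0.07) and SRSF3 at -0.14 (SE 0.03), the latter not called under any of the other scalings. Of 13 neurofilament, BEX and TCEAL genes, 8 rose (5 to 8 under the other scalings) and 2 fell, and TCEAL4 (0.22, SE 0.04) was separated beside BEX2, NEFL and INA but not called on signals as deposited or with spike-in scaling.

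The glucocorticoid-induced list shows how the reference shapes the result. Against the average of all 9 arrays, 20 of 31 tested members were higher and 6 lower, with a median of 0.53, but against the dexamethasone arrays alone 5 were higher and 15 lower, with a median of -0.31. FKBP5, a co-chaperone of the receptor, had means of 231 (SD 19) in non-treated cells, 2733 (SD 86) with dexamethasone, 584 (SD 21) with mifepristone, 554 (SD 40) with match and 1519 (SD 48) with mismatch, 3 arrays each. Both polyamides thus lay between the uninduced and the induced level, mismatch the higher. TSC22D3, the gene of the leucine zipper protein GILZ, had 123 (SD 8.5), 1101 (SD 46), 189 (SD 33), 670.1 (SD 28) and 836 (SD 16) in the same order. Only 4 members were above all 9 arrays. They were GADD45A, CAVIN2 (1.69, SE 0.08), the sodium channel subunit SCNN1A and TNFAIP3. CAVIN2 had means of 321 in non-treated, 1252 in dexamethasone and 409 in mifepristone arrays, against 1527 to 2200 in the polyamide arrays. For TNFAIP3 the lowest polyamide array, at 66.9, barely exceeded the highest other array, at 64.9. A further probe set of SCNN1A (0.429) did not pass the test. SCNN1A had 164, 188 and 177 with match and 397, 398 and 369.6 with mismatch against 17.9 to 163, so that its match arrays barely passed the highest other array. Match was below mismatch in 17 of the 31 and above in 3 (10 and 3 with spike-in scaling).

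**Figure D4:**
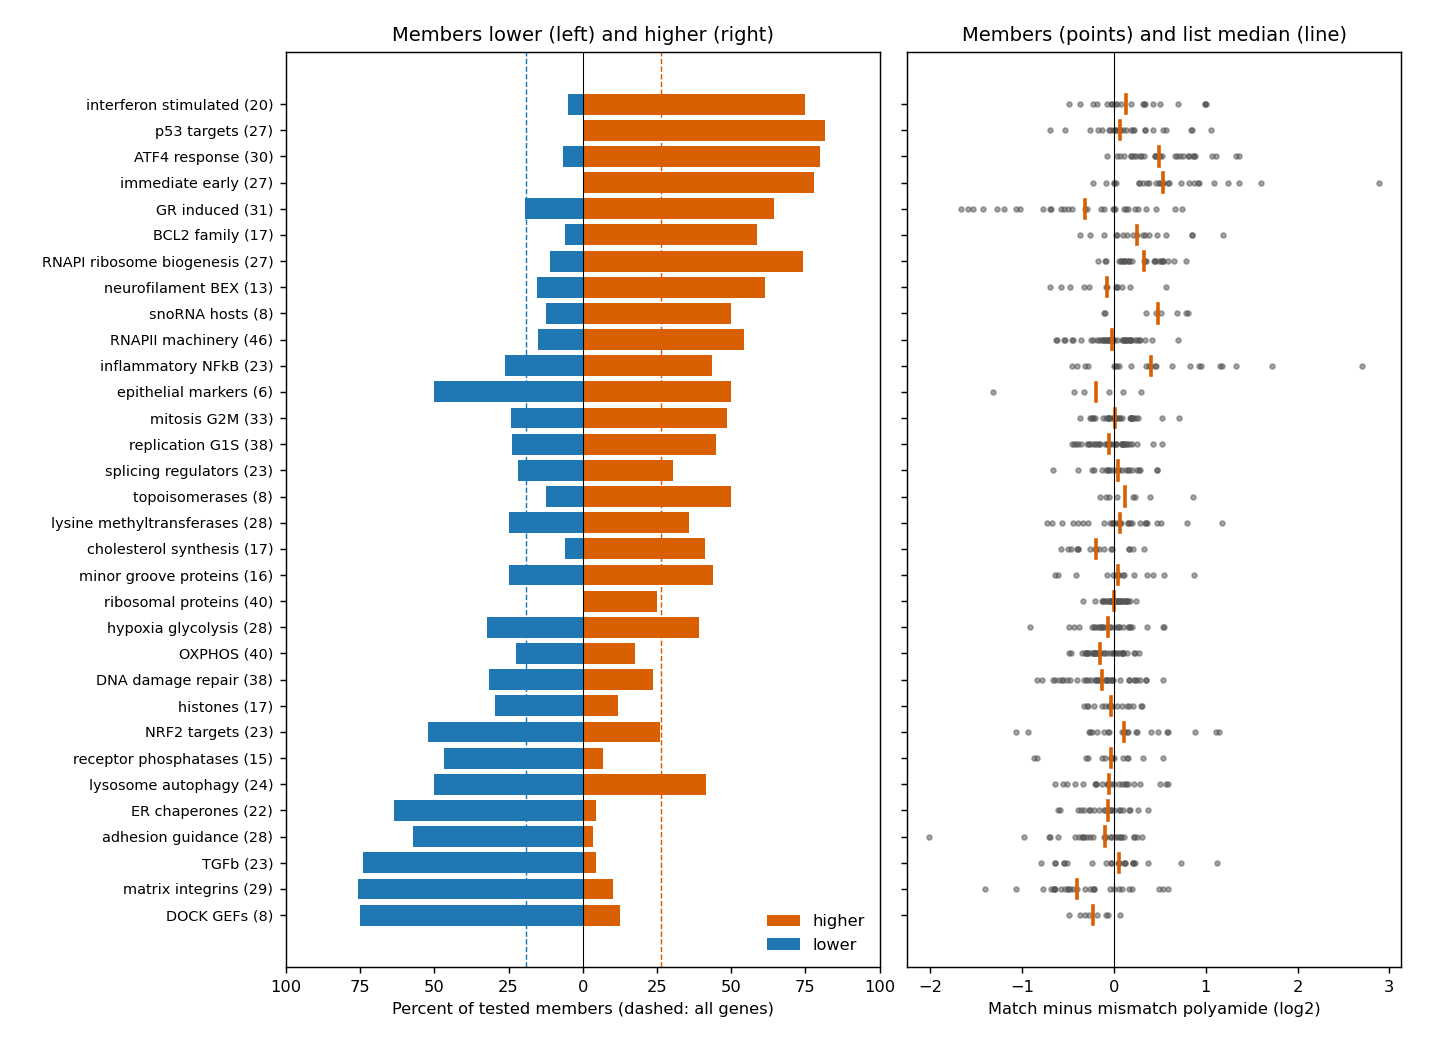
Left, percent of the tested members of each list that were lower (blue) or higher (orange) in the average of both polyamides. The number tested is in brackets, and dashed lines show all 16358 genes (19.1% and 26.2%). Right, match minus mismatch (log2) for each member (points) and the median of the list (line). Interferon, p53, ATF4 and immediate early genes stand at the top, matrix and DOCK genes at the bottom, and the ATF4 and immediate early medians lie to the right of 0 in the second panel.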

How the data were processed

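Biotin-labelled RNA was read on Affymetrix arrays. Each deposited value is a linear intensity that the authors computed for a probe set with MAS5, a tool that the submitters' processing notes name without a version. Of 54675 probe sets, 62 controls were left out. Signals were quantile normalized, 16 was added, log2 was taken, and the 39744 probe sets (72.7%) above the 40th percentile of their array in at least 3 arrays were fitted with limma 3.58.1 in R 4.3.3, with 5 group coefficients and a variance trend (10 residual and 9.36 prior degrees of freedom). The average of both polyamides was set against the average of the 3 other groups, and match against mismatch. P-values were adjusted by Benjamini and Hochberg over all probe sets, and 0.05 was the threshold. A shared change passed the test with all 6 polyamide arrays on 1 side of the 9 others.

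A gene was represented by 1 probe set with its symbol alone (41097 probe sets had 1 symbol, 1801 several, 11777 none), not _x_at first, then the highest mean. RefSeq spans (GRCh38.p14) matched 16336 of 16358 genes (99.9%), and promoters 12931. Named genes were the 12 most raised and 12 most lowered shared genes, the 5 largest differences between compounds each way and the 4 smallest among changes of at least 2-fold, and, by adjusted p, the first 4 or fewer shared members of a list. Other members (among them ATF4, SLC7A11, SLC7A5, HSPA5, XBP1, CDKN1A, POLR2A, TBP, FKBP5, TSC22D3, TGFBR1, LAMB3, ROBO1, KRT8, KRT18) were chosen after their values were seen. The members and lists were chosen with earlier results of these data known. On simulated data of 39744 probe sets, only 66 or 67 were changed at each fold, equally under both compounds. Of these, 52.2% of 1.5-fold, 95.5% of 2-fold and 100% of 4-fold changes were called, with 6 false calls elsewhere. The shares called and fully separated were 46.3%, 88.1% and 98.5%. In the real data 37% of probe sets were called, so the simulated rates need not carry over. Having 3 arrays in a group limits the precision. Alternatives covered scaling, the added constant, the filter, the variance trend, the replicate block, the reference, the definition of shared, the probe set of a gene, and leaving out each array.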

Additional observations from a re-analysis of the deposited data

Results flagged for a closer look

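In 68 sets of arrays (the 6 polyamide arrays and the 9 others, for the most raised and lowered genes and for those chosen by the difference between compounds), a value far from the others was looked for with Dixon's test at its 95% level. It marked 3. The rate of about 1 in 20 by chance holds for arrays of 1 treatment. These sets pool different treatments, so the 3 cannot be set against that rate. RASD1 was low in the second match array at 250.8, the nearest of the other 5 polyamide arrays being at 375.4. ADK was high in the third dexamethasone array at 527.2, with the nearest of the 9 arrays at 482.6. ATG10 was high in the first mifepristone array at 236.4, with the nearest at 209.2.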

How the results depend on the processing

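The average change of both polyamides kept its direction in all 136 named genes and its call under every alternative in 130, and the match minus mismatch difference kept its call in 27 of 76. Full separation held less often. Of 71 named rises and 65 named falls, 41 and 44 stayed called and separated on signals as deposited. The numbers were 55 and 58 with median centring, 67 and 61 with trimmed-mean scaling, and 37 and 50 with spike-in scaling. On signals as deposited 3094 probe sets differed between the compounds (6697 as reported), 4885 were higher with polyamide, and 370 and 616 genes were shared rises and falls. With spike-in scaling the same counts were 2847, 5018, 286 and 734. With median centring 861 genes were shared rises and the median under 10 kb was 0.0995. With trimmed-mean scaling the medians over 300 kb and under 10 kb were -0.408 and 0.146, with log2(signal + 4) -0.618 and 0.171, with log2(signal + 64) -0.196 and 0.0615, without a filter -0.171 and 0.0693, and with the stricter filter, which leaves 22609 probe sets, -1.23 and 0.221. Long genes lay below short genes by -0.553 to -0.567 under the 5 scalings. Against the dexamethasone arrays alone 2572 genes were shared rises, fewer arrays having to be exceeded. With a 2-fold minimum the shared counts were 176 and 475. Beyond these constructions, the cause was not tested. Match minus mismatch reversed for POLR1D (-0.0232 on signals as deposited, -0.0226 with median centring) and RPL12 (-0.0121 and -0.0115).

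Leaving out 1 array at a time gave 13784 to 14509 changed probe sets, 7251 to 7671 higher and 6533 to 6891 lower, 5384 to 6756 between the compounds, 1576 to 1748 shared rises, 1392 to 1514 shared falls, 286 to 300 list members higher, 195 to 205 lower, medians of -0.489 to -0.418 over 300 kb and 0.121 to 0.138 under 10 kb, and 256 to 268 shared falls over 300 kb. Same-numbered arrays did not deviate together (correlations of -0.0836 to 0.116, 2 of 30 pairs over 0.1, 8 of 15 arrays closest to their own number), so the numbers were not taken as pairing. With the replicate block 14717 probe sets changed and 6712 differed between the compounds, and all 2925 shared genes were kept. With 3 arrays per group, small changes at low signals are the least certain.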
